A study of Mus musculus with 6 samples.

Results

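C-type lectins, Siglecs and Fc receptors are surface proteins with which macrophages, dendritic cells, granulocytes and endothelial cells read sugars, sialic acids, lipids and antibody on microbes and dying cells. The genes followed here are those of the count table whose symbol begins with Clec and a digit, Siglec, Fcgr, Cd300, Lilr, Pira or Pirb, without Clec4f, and whose raw counts summed to at least 10 over the 6 libraries. That rule took 47 of 56847 genes. Another 14 matching symbols lay under the minimum, 6 of them with no count. The lowest members were Lilra6 and Cd300c with 43 and 47 counts in all, and the highest excluded genes were Clec12b and Cd300ld5 with 7 each.

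The libraries came from mouse liver. Mice in 3 of them had eaten a normal diet and in the other 3 CDAHFD, a high-fat diet that lacks choline and has a defined amino acid content and that is used to bring on steatohepatitis. The labels give no strain, sex, age, time on the diet or genotype, and do not say that each library is a separate animal. Each p-value therefore reflects how these libraries vary, which may be technical. Total counts per library ran from 21986215 to 25628531, of which the 47 genes held 0.0544% to 0.0574% in the normal diet group and 0.105% to 0.113% in the CDAHFD group. The tissue label was checked against 8 hepatocyte markers, and albumin (Alb) stood at 67791 to 110500 CPM (counts scaled to a common library size) in every library.

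Most of these receptors share a simple logic. Activating ones, such as Clec7a, Clec4e and the Fc receptors Fcgr1, Fcgr3 and Fcgr4, signal through ITAM tyrosine motifs of their own tail or of the adaptors Fcer1g and Tyrobp to the kinase Syk, while inhibitory ones, such as Fcgr2b, Pirb and Cd300a, recruit phosphatases through ITIM motifs. In liver, sinusoidal endothelial cells carry Clec4g (LSECtin) and much Fcgr2b, and mouse Kupffer cells carry Clec1b (CLEC-2), so this family holds genes of resident sinusoidal cells beside genes of monocytes, macrophages and dendritic cells.

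The contrast in the data ran along that line, and the promoters of 7 genes are shown because they stand for its sides. Clec4g and Clec1b are the sinusoidal lectins, Clec7a lies in one gene cluster with Clec1b and had the largest difference in TPM, Clec4e is the member with the largest fitted change, and Fcgr4, Pirb and Pira2 carry the PU.1-type motif that was searched for. Each line gives the 250 bases before the RefSeq start, 5′ to 3′ on the gene's strand. Capitals mark a match to a searched motif, and a line without capitals holds none.
Clec4g: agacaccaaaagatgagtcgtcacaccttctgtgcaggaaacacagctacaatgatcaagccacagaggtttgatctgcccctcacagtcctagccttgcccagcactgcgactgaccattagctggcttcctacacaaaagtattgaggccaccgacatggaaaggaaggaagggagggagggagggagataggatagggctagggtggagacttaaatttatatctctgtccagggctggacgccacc
Clec1b: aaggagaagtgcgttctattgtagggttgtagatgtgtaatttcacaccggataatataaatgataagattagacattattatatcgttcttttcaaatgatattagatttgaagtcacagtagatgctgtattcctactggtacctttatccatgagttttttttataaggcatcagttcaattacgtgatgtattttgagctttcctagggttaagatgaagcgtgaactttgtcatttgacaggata
Clec7a: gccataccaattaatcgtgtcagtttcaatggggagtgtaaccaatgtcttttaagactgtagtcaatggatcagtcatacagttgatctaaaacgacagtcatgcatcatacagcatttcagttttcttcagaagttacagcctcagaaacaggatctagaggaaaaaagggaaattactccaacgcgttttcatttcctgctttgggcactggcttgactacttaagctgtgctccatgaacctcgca
Clec4e: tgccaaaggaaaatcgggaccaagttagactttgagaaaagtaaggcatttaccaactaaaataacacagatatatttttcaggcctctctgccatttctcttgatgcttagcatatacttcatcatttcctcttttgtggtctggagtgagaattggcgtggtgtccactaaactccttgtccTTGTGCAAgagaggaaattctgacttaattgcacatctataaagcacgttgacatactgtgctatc
Fcgr4: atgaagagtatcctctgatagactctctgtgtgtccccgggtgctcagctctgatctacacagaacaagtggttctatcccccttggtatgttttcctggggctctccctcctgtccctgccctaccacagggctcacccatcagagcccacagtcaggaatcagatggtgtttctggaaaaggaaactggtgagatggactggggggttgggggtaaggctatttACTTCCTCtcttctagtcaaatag
Pirb: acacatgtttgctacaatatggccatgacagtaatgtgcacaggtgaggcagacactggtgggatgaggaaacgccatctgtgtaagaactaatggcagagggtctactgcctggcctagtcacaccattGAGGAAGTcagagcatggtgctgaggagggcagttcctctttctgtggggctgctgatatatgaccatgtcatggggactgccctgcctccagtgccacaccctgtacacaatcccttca
Pira2: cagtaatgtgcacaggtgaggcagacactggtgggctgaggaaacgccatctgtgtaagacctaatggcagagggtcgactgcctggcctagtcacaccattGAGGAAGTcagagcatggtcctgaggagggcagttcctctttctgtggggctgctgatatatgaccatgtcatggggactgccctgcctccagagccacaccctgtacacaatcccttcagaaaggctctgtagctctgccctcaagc

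These sequences are RefSeq's for build GRCm38.p6, which is not the GRCm39 build of the counts. In that build they lie at chr8:3720652-3720901 (- strand), chr6:129397047-129397296 (+ strand), chr6:129472786-129473035 (- strand), chr6:123289872-123290121 (- strand), chr1:171018676-171018925 (+ strand), chr7:3720383-3720632 (- strand) and chr7:3845052-3845301 (- strand), in the order printed. A promoter was found for 40 of the 47 genes. The PU.1-type motif GAGGAAGT, searched on both strands, stood in 6 of these 40 windows (15%) and in 2.42% of 27025 RefSeq promoter windows of the same length. The 6 were Fcgr4, Cd300ld, Cd300ld3, Pirb, Pira2 and Lilra6. They are not independent cases. Pirb, Pira2 and Lilra6 are relatives close together on chromosome 7, and Cd300ld and Cd300ld3 are relatives close together on chromosome 11. The share of 15% therefore counts related promoters more than once. In the Fcgr4 window it is read on the other strand, starting 24 bases before the start. The C/EBP-type motif TTGCNNAA stood in 9 of 40 windows (22.5%) against 9.55% of all, among them Clec4e, 66 bases before the start. The AP-1 motif TGACTCA stood in 0 of 40 against 4.43%. The motifs were chosen after the expression values were known, the printed windows hold at most 1 match each, and a match is a description of letters only. After alignment with gaps, 217 of the 250 bases of the Pirb and Pira2 windows were identical (86.8%). By the same measure Clec4g with Clec1b gave 58% and Clec1b with Clec7a 58.8%. These windows lie before the start and do not show how alike the transcripts are. Reads of the PIR genes, which are paralogs, may have been split between copies by the authors' counting, which was not tested.

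On CDAHFD, the receptors of monocytes, macrophages and dendritic cells rose nearly throughout, while the endothelial or Kupffer group lay between -0.24 and 0.62 in log2 change. By edgeR's quasi-likelihood test with Benjamini-Hochberg adjustment over 14215 genes, 36 of 46 tested genes of the family were higher on CDAHFD, 1 was lower and 9 did not pass an adjusted p of 0.05. Among all tested genes 28.5% were called higher and 23.5% lower. The median log2 change of the tested family was 1.88, beside 0.01 over all genes tested. A rise of at least 4-fold was called in 22 of the 46, beside 8.29% of all genes. Every CDAHFD library lay above every normal diet library in 37 of them, beside 32.2% of all genes, and below in 2, beside 28.4%. Among the 46, 9 had under 10 counts in each normal diet library and passed the filter on low counts only through the CDAHFD libraries. That favoured a call, and over all tested genes 648 of 687 such genes were called higher. Of the other 37 tested genes 27 rose, 14 of them at least 4-fold, 1 fell and 9 did not pass, with a median log2 change of 1.29. These 37 are not all free of the filter. Cd300lb, Clec10a, Lilrb4a and Siglech, all called higher, fell short of its cutoff, scaled to library depth, in at least 1 normal diet library. They passed only with the help of the CDAHFD libraries. In bulk tissue a change in the number of cells of a type and a change in RNA per cell cannot be told apart.

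**Figure D1:**
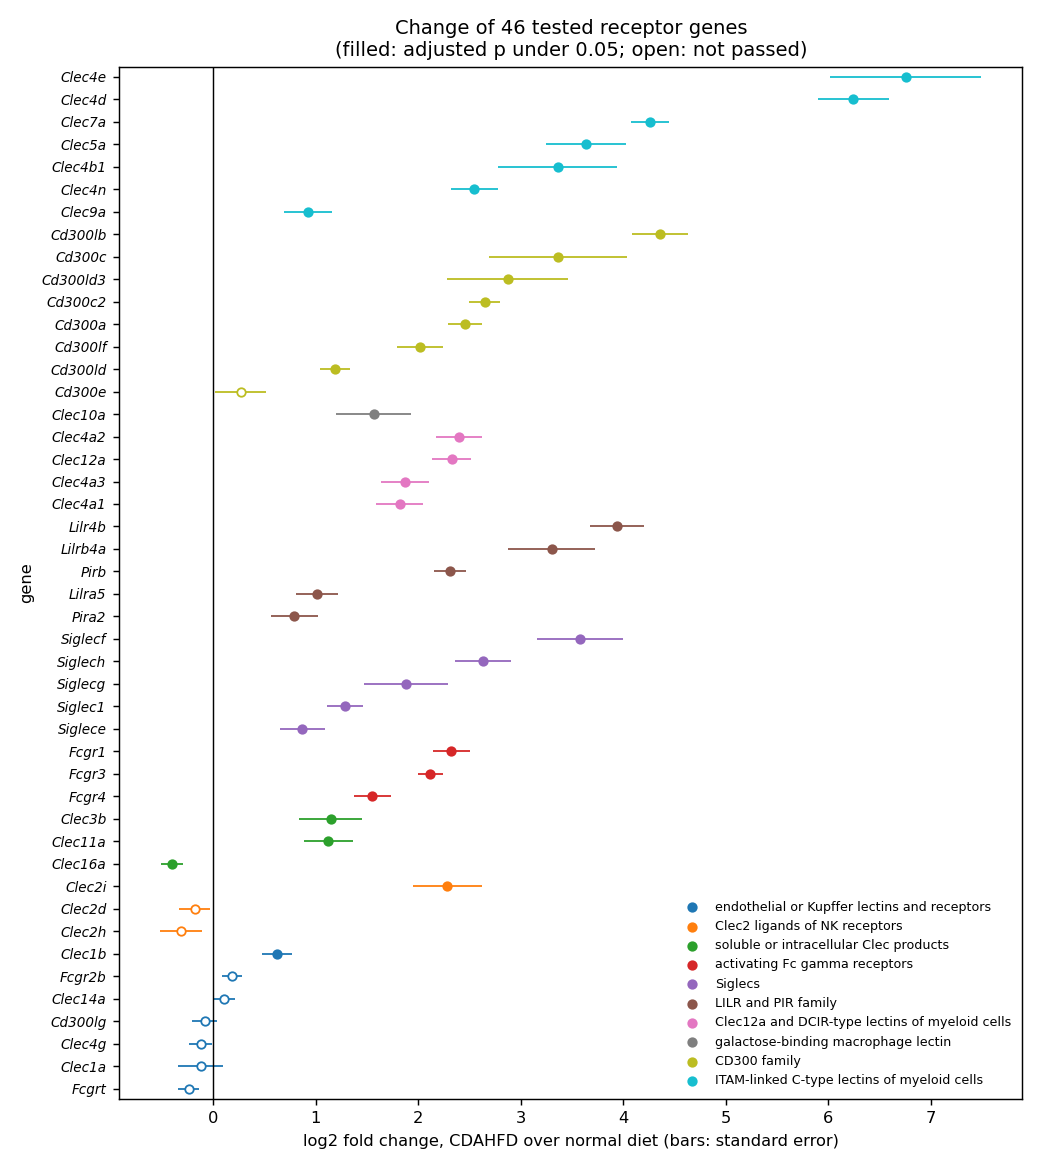
Log2 fold change of CDAHFD over normal diet for the 46 tested genes (x axis), with standard errors as bars, grouped by class. Filled points passed an adjusted p of 0.05 and open points did not, and the endothelial or Kupffer group at the bottom lies between -0.24 and 0.62 while Clec4e and Clec4d at the top lie above 6.

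Clec4g, the sinusoidal endothelial lectin LSECtin (ENSMUSG00000074491), was deposited at 49.2, 44.5 and 46 TPM (a share of all transcripts that also accounts for gene length) on normal diet and at 51, 56.9 and 57.6 TPM on CDAHFD. On the TPM scale the CDAHFD libraries were slightly higher, while on scaled CPM the groups overlapped, at 47.4 ± 4.35 and 43.5 ± 3.29 (SD, n = 3). Its log2 change was -0.12 ± 0.11 (standard error, adjusted p = 0.368 by edgeR). The sign of this small value is set by the scaling, since it was 0.20 with total counts and 0.68 when libraries were scaled to hepatocyte markers. Relative to the median of all tested genes it stayed between -0.14 and -0.13 under the 4 scalings of the counts. A scaling shifts all genes by nearly the same amount, so that this narrow range was fixed in advance.

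Clec1b, the podoplanin receptor CLEC-2 of platelets and mouse Kupffer cells (ENSMUSG00000030159), had 4.78, 6.98 and 6.52 TPM on normal diet and 12.9, 12.1 and 11 TPM on CDAHFD. All CDAHFD libraries were above all normal diet libraries. It rose by 0.62 ± 0.15 on the log2 scale (adjusted p = 0.00431 by edgeR), from 12.8 ± 2.10 to 19.7 ± 1.92 CPM. Relative to the median gene its change lay between 0.59 and 0.61 under the same scalings, a range again narrow by construction. Of 5 platelet markers 2 were tested and rose, Itga2b by 0.75 ± 0.23 and Pf4 from 0.446 ± 0.281 to 2.73 ± 0.647 CPM. Ppbp overlapped between the diets (means of 0.264 and 0.298 CPM), Gp1bb had no count in any library and Gp9 reached at most 0.143 CPM. Pdpn, the ligand of CLEC-2, rose by 2.68 ± 0.53 but reached a mean of only 0.879 CPM. It had under 10 counts in each normal diet library and passed the filter only through the CDAHFD libraries, which favoured its call. The part of platelets in the Clec1b value was not tested.

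The other members of the endothelial or Kupffer group did not pass. Fcgrt, the heavy chain of the neonatal Fc receptor that salvages antibody and albumin in hepatocytes and endothelium, was the most abundant family member on both diets, at 216, 211 and 223 TPM and at 230, 232 and 246 TPM. By TPM every CDAHFD library was higher, by scaled CPM every one was lower (log2 change -0.24 ± 0.10, adjusted p = 0.0665 by edgeR), while it was called lower by DESeq2 (adjusted p = 0.0389) and by edgeR without normal diet replicate 2 (-0.31, adjusted p = 0.0261). With total counts and hepatocyte markers its sign turned, to 0.082 and 0.56. Fcgr2b, the inhibitory Fc gamma receptor, went from 31.1, 37 and 33.5 TPM to 47.8, 49.8 and 50.5 TPM. Its groups did not overlap on either scale, but its log2 change of 0.18 ± 0.10 had an adjusted p of 0.141 by edgeR. Cd300lg, the endothelial CD300 protein nepmucin, was at 23.9, 23.4 and 25.7 TPM and at 30.9, 25.6 and 32.6 TPM, a log2 change of -0.09 ± 0.12. The endothelial lectin gene Clec14a was at 10.7, 13.4 and 11.4 TPM and at 16, 15.6 and 17.4 TPM, a log2 change of 0.11 ± 0.11. Clec1a, found on endothelium and dendritic cells, was at 1.54, 2.08 and 1.21 TPM and at 1.97, 1.67 and 2.05 TPM, a log2 change of -0.12 ± 0.22. The CPM of these 3 genes overlapped between the diets. The signs of Cd300lg and Clec1a turned with total counts (0.24 and 0.20). With total counts Fcgr2b and Clec14a were called higher (0.50 and 0.43), and with hepatocyte markers all 7 of the group were.

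Endothelial markers were measured beside these receptors. Of 9 sinusoidal endothelial markers Lyve1 and Stab1 rose, by 0.80 ± 0.20 and 0.67 ± 0.13, and 7 did not pass, a share of 22.2% higher beside 28.5% of all genes, with a median log2 change of 0.10 and a summed level of 423 to 482 CPM on normal diet and 482 to 565 CPM on CDAHFD. The ratio of Clec4g to Stab2, a scavenger receptor of the same cells, was 2.45, 1.90 and 2.25 with normal diet and 1.84, 2.01 and 1.77 with CDAHFD by TPM, with overlap between the groups. Kupffer cell markers diverged. Cd5l and Marco rose by edgeR, a share of 33.3% of the 6 markers beside 28.5% of all genes. Marco did not pass by DESeq2 (adjusted p = 0.0569). Cd163 fell by 2.30 ± 0.53, and Timd4, Vsig4 and Clec4f did not pass. CDAHFD replicate 2 stood apart in them, with Marco at 47.9 CPM against 10.1 and 11.6 in the other CDAHFD libraries and Cd163 at 19.8 CPM against 3.85 and 2.92.

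**Figure D2:**
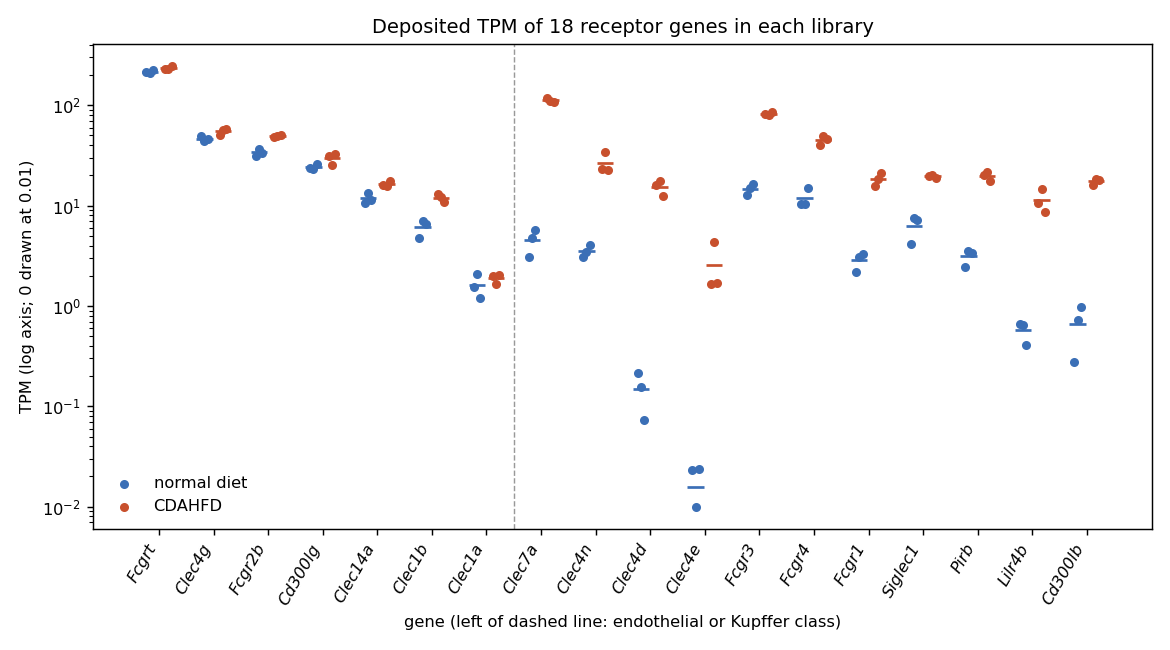
Deposited TPM (y axis, log scale) of 18 receptor genes in each of the 6 libraries, with a line at each group's mean. A value of 0 is drawn at 0.01. Left of the dashed line are the 7 endothelial or Kupffer genes, of which Fcgrt lies between 211 and 246 TPM in every library, and right of it Clec7a goes from between 3.07 and 5.77 TPM to between 107 and 119 TPM.

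Among the ITAM-linked C-type lectins of myeloid cells all 7 tested genes rose. Clec4d, Clec4e, Clec5a and Clec4b1 passed the filter only through the CDAHFD libraries, and the other 3, Clec7a, Clec4n and Clec9a, had a median log2 change of 2.55. Clec7a, the beta-glucan receptor Dectin-1 (ENSMUSG00000079293), stood at 3.07, 4.80 and 5.77 TPM on normal diet and at 119, 111 and 107 TPM on CDAHFD. Its groups lay far apart, with a log2 change of 4.26 ± 0.19 (adjusted p = 4.66e-08 by edgeR). It was the gene at rank 18 of the family by mean TPM on normal diet and at rank 3 on CDAHFD, behind Fcgrt and Clec2d.

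Clec4d and Clec4e, which encode the partner lectins MCL and Mincle that sense mycobacterial glycolipid and, for Mincle, products of dead cells, were almost absent on normal diet. Clec4d had 3, 2 and 1 counts on normal diet and 201, 258 and 161 counts on CDAHFD, a log2 change of 6.24 ± 0.35. Clec4e had 1, 0 and 1 counts and then 65, 198 and 68. With so few counts the ratio of its summed rates, 128, carries a counting interval of 35.3 to 1065 (exact, 95%, counting error only). CDAHFD replicate 2 was the high library for Clec4e, and the fitted log2 change of 6.76 ± 0.74 was 6.07 without it.

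Clec4n, the mannan receptor Dectin-2, rose from 3.09, 3.44 and 4.07 TPM to 23.1, 34 and 22.5 TPM, a log2 change of 2.55 ± 0.23. CDAHFD replicate 2 was again the highest library, and the groups did not overlap. Clec5a (MDL-1), which signals through Tyrobp, rose by 3.64 ± 0.39 from 4, 4 and 2 counts to 56, 69 and 41 counts. Clec4b1, an Fcer1g-linked lectin of dendritic cells, rose by 3.36 ± 0.58 from a mean of 0.0824 CPM, and by 4.03 without normal diet replicate 1. Clec9a, a marker of cross-presenting dendritic cells that binds actin exposed by dead cells, had the smallest change of the class, from 1.47, 1.37 and 1.07 TPM to 3.21, 3.71 and 2.65 TPM (0.93 ± 0.24, adjusted p = 0.00653 by edgeR).

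Clec12a and the DCIR-type lectins rose in 4 of 4 cases. Clec12a (MICL), an inhibitory receptor of myeloid cells, went from 1.48, 2.40 and 2.41 TPM to 13.2, 15.5 and 11.8 TPM, a log2 change of 2.33 ± 0.19. Clec4a2 (DCIR1), which carries an ITIM, rose by 2.40 ± 0.23, from 0.909, 1.63 and 1.25 TPM to 9.27, 9.12 and 7.16 TPM. Its relative Clec4a3 rose by 1.87 ± 0.23, from 2.61, 5.76 and 4.80 TPM to 21.3, 21.3 and 19 TPM, and Clec4a1 by 1.82 ± 0.23, from 3.41, 4.18 and 6.59 TPM to 20.2, 23.8 and 20.7 TPM. No CDAHFD library overlapped a normal diet library in this class. The DCIR genes are close paralogs, so their single values are uncertain. Clec10a, the galactose-binding lectin MGL1 of macrophages and dendritic cells, rose by 1.57 ± 0.37 and stayed low, at 1.42 ± 0.228 CPM on CDAHFD. With 5, 14 and 10 counts on normal diet, it needed the CDAHFD libraries to pass the filter.

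Neighbouring genes changed by different amounts. By RefSeq gene order (GRCm38.p6), Clec1b, Clec9a, Clec1a and Clec7a follow one another on chromosome 6 with no other protein-coding gene between them, and their log2 changes were 0.62, 0.93, -0.12 (not passed) and 4.26. In another stretch of that chromosome Clec4n, Clec4d and Clec4e are direct neighbours, and they changed by 2.55, 6.24 and 6.76. On chromosome 1, Fcgr2b, Fcgr4 and Fcgr3 adjoin, at 0.18 (not passed), 1.55 and 2.12. Of the 47 genes 16 lie on chromosome 6 and 10 each on chromosomes 7 and 11.

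To set the sinusoidal lectins against a myeloid one without any library scaling, ratios were taken within each library. Clec7a had the largest difference in TPM of the family, so the separation of its ratios largely repeats its own rise. By TPM the ratio of Clec4g to Clec7a was 16, 9.25 and 7.96 with normal diet and 0.428, 0.513 and 0.540 with CDAHFD. In every normal diet library Clec4g exceeded Clec7a, and in every CDAHFD library it was below it. The mean log2 ratio went from 3.40 ± 0.530 to -1.02 ± 0.176 (SD, n = 3), a difference of -4.43 (exact two-sided permutation test, p = 0.1, the smallest that 3 against 3 libraries allow; adjusted over 2 ratios, p = 0.1). The ratio of Clec1b to Clec7a was 1.56, 1.45 and 1.13 with normal diet and 0.109, 0.110 and 0.103 with CDAHFD, a log2 difference of -3.67 (same exact permutation test, p = 0.1). With Fcgr1 in place of Clec7a the differences were -2.45 and -1.70. The ratio of Clec4g to Clec1b was 10.3, 6.38 and 7.06 in the normal diet libraries and 3.94, 4.68 and 5.26 in the CDAHFD libraries. The diets did not overlap in it. These transcripts may come from different cells, so the ratio does not measure a balance within any cell.

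**Figure D3:**
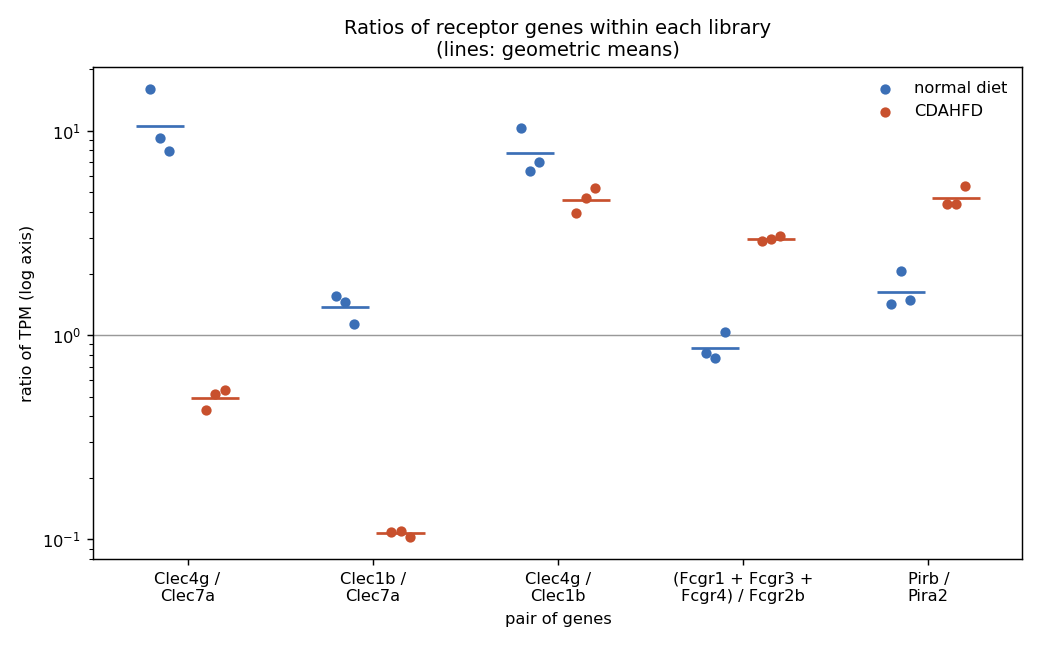
Ratios of TPM between receptor genes within each library (y axis, log scale) for 5 gene pairs or sums, 3 libraries per diet, with lines at geometric means. The ratio of Clec4g to Clec7a lies between 7.96 and 16 on normal diet and between 0.428 and 0.540 on CDAHFD, and the activating to inhibitory Fc receptor ratio lies between 0.773 and 1.03 and then between 2.87 and 3.04.

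All 3 activating Fc gamma receptor genes rose. Fcgr3, a low-affinity receptor for antibody complexes, went from 12.9, 15.1 and 16.2 TPM to 81.5, 80.3 and 85.6 TPM (log2 change 2.12 ± 0.12, adjusted p = 1.95e-07 by edgeR). Fcgr1, the high-affinity receptor CD64, went from 2.19, 3.10 and 3.28 TPM to 15.7, 18.3 and 21.2 TPM (2.32 ± 0.18). Fcgr4 went from 10.4, 10.4 and 15 TPM to 40.1, 49 and 46.6 TPM (1.55 ± 0.18). The summed TPM of these 3 over that of the inhibitory Fcgr2b was 0.817, 0.773 and 1.03 with normal diet and 2.87, 2.97 and 3.04 with CDAHFD. The 3 activating transcripts together were thus near Fcgr2b by TPM in the normal diet libraries and above it in each CDAHFD library. In bulk liver these transcripts may come from different cells, so the ratio does not measure a balance within any cell.

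Siglecs, which bind sialic acid, rose in 5 of 5 tested cases, of which Siglecf and Siglecg passed the filter only through the CDAHFD libraries. Siglech fell just short of the filter's cutoff, scaled to library depth, in a normal diet library and needed the CDAHFD libraries as well. Siglec1 (CD169, sialoadhesin), an adhesion receptor of tissue macrophages, was the most abundant, at 4.19, 7.46 and 7.18 TPM on normal diet and 19.6, 20.3 and 18.9 TPM on CDAHFD (log2 change 1.29 ± 0.17). The inhibitory Siglece of macrophages and neutrophils rose by 0.87 ± 0.22, from 3.81, 6.03 and 7.78 TPM to 13.2, 14.3 and 14 TPM, and Siglecg, known from B cells, by 1.88 ± 0.41. Siglech, a marker of plasmacytoid dendritic cells that pairs with Tyrobp, rose by 2.63 ± 0.27 from 10, 15 and 10 counts to 77, 98 and 107 counts. Siglecf, known from eosinophils, rose by 3.58 ± 0.42 from 3, 6 and 3 counts to 84, 56 and 48 counts.

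Markers of those cell types did not all move with them. Of the 7 markers of mast cells, basophils and eosinophils 1 was tested and did not pass, 3 had no count in any library, and the eosinophil genes Epx and Prg2 were at 0.15 CPM or below in each library, with a summed list level of 0.0982 to 0.750 CPM on normal diet and 0.429 to 1.09 CPM on CDAHFD. Of 6 genes listed for plasmacytoid dendritic cells 5 rose, with a summed level of 22.2 to 29.8 CPM and then 106 to 186 CPM, of which Ly6d alone made 44.6 to 125 CPM. Cox6a2 had under 10 counts in each normal diet library and passed the filter only through the CDAHFD libraries, and of the other 5 genes 4 rose. Ccr9 and Klk1 were under 10 counts in some normal diet libraries and also needed the CDAHFD libraries to pass. Of 5 B cell markers Cd79a and Cd79b rose and 3 did not pass. Cd79a was close to the threshold (adjusted p = 0.0464 by edgeR) and did not pass by DESeq2 (adjusted p = 0.0964). The part of these cells in the Siglec values was not tested.

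In the CD300 family, whose members bind lipids such as phosphatidylserine on dying cells, 7 of 8 tested genes rose. Cd300ld3 and Cd300c passed the filter only through the CDAHFD libraries, and of the other 6 genes 5 rose. Among these 5, Cd300lb had 7, 17 and 24 counts on normal diet and also needed the CDAHFD libraries to pass. Cd300lb, an activating receptor that pairs with Tyrobp, had the largest change, from 0.277, 0.731 and 0.971 TPM to 16, 18.3 and 18 TPM (log2 change 4.36 ± 0.27). Cd300c2 went from 5.19, 5.37 and 6.72 TPM to 50.0, 46.1 and 43.8 TPM (2.65 ± 0.15), making it the most abundant of the class on CDAHFD. The inhibitory receptor gene Cd300a rose by 2.46 ± 0.17, from 2.29, 2.06 and 2.69 TPM to 14.3, 16.5 and 19.4 TPM. Cd300lf, another inhibitory receptor gene, rose by 2.02 ± 0.22, and Cd300ld by 1.19 ± 0.15, from 9.35, 10.4 and 10.5 TPM to 32.1, 32.3 and 24.5 TPM. Activating and inhibitory members both rose. The low-count genes Cd300ld3 and Cd300c rose by 2.87 ± 0.59 and 3.36 ± 0.67, and by 3.70 and 4.22 without normal diet replicate 1. For Cd300c, with 3 counts in all on normal diet, the ratio of summed rates was 11.4, with a counting interval of 3.65 to 57.3. Cd300e, a receptor of monocytes, did not pass (0.27 ± 0.25, adjusted p = 0.4 by edgeR). It had 2.86, 3.38 and 4.00 TPM on normal diet and 3.91, 6.87 and 4.97 TPM on CDAHFD, where replicate 2 was again highest, and its change was -0.048 without that library.

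Of the LILR and PIR genes, relatives of the human leukocyte immunoglobulin-like receptors, 5 of 5 tested rose. Lilrb4a passed the filter only with the help of the CDAHFD libraries. Lilr4b (gp49A) went from 0.659, 0.645 and 0.412 TPM to 10.6, 14.5 and 8.60 TPM (log2 change 3.94 ± 0.26), and its inhibitory relative Lilrb4a (gp49B) rose by 3.30 ± 0.43 from 10, 4 and 10 counts to 80, 167 and 66 counts. Pirb, an inhibitory receptor for MHC class I, went from 2.46, 3.50 and 3.38 TPM to 20.2, 21.4 and 17.6 TPM (2.31 ± 0.16). Its activating counterpart Pira2 rose by 0.79 ± 0.23 (adjusted p = 0.0137 by edgeR), and did not pass without normal diet replicate 2, CDAHFD replicate 1 or CDAHFD replicate 2 (adjusted p = 0.0517 to 0.0718). The ratio of Pirb to Pira2 by TPM was 1.41, 2.06 and 1.48 with normal diet and 4.40, 4.40 and 5.37 with CDAHFD. Lilra5 rose by 1.02 ± 0.21, from 3.51, 4.81 and 6.21 TPM to 13, 13.2 and 11.6 TPM. Lilra6, with 2, 2 and 1 counts on normal diet and 8, 20 and 10 on CDAHFD, was not tested. Reads of the PIR genes and of the gp49 pair may be shared between copies.

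The Clec2 genes encode ligands of the Klrb1 receptors of natural killer cells, and their abundant members did not pass. Clec2d was at 160, 134 and 123 TPM on normal diet and at 133, 181 and 159 TPM on CDAHFD, the member at rank 2 on both diets (log2 change -0.18 ± 0.15). Clec2h was at 29.6, 27.1 and 17.4 TPM and at 24.4, 31.1 and 20.7 TPM (-0.32 ± 0.20). Groups overlapped for both. Both signs turned with total counts (0.14 and 0.0059). Without normal diet replicate 3 or CDAHFD replicate 2, Clec2h was called lower, at -0.51 and -0.55. Clec2i, which passed the filter only through the CDAHFD libraries, rose by 2.28 ± 0.34 from 6, 6 and 6 counts to 31, 48 and 36.

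Among products that are not surface receptors, the secreted proteins rose. Clec3b (tetranectin), a plasminogen-binding plasma protein, rose by 1.14 ± 0.31 from 25, 16 and 24 counts to 50, 52 and 83. CDAHFD replicate 3 was the high library, and without it the change was 0.82 (adjusted p = 0.0539 by edgeR). Clec11a, a secreted growth factor of bone and blood progenitors, rose by 1.12 ± 0.24 from 33, 32 and 47 counts to 78, 121 and 117 counts. Clec16a, an endosomal protein of autophagy and mitophagy, was the only one of the 46 called lower (-0.41 ± 0.11, adjusted p = 0.00797 by edgeR). Its TPM overlapped, at 8.79, 11.2 and 9.11 in the normal diet group and 9.50, 8.97 and 9.78 in the CDAHFD group, and its call was lost with total counts (-0.084) and turned to 0.38 with the hepatocyte markers (adjusted p = 0.0567).

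The summed level of the family and its make-up both differed between the diets. The summed TPM of the 47 genes was 621, 614 and 618 with normal diet and 1159, 1250 and 1192 with CDAHFD. The endothelial or Kupffer group gave 54.2%, 55% and 56.2% of it on normal diet and 33.7%, 31.5% and 35% on CDAHFD, while its own summed TPM was 337 to 347 and then 391 to 417. Most of that group's share was Fcgrt, a gene also active in hepatocytes. In the normal diet libraries Fcgrt alone made 34.3% to 36.1% of the family sum, against 18.6% to 20.6% in the CDAHFD libraries. The group's share therefore does not stand for sinusoidal cells alone. ITAM-linked lectins went from 1.36%, 1.61% and 1.84% to 14.6%, 14% and 12.6%, most of it Clec7a. Activating Fc receptors went from 4.09%, 4.65% and 5.59% to 11.8%, 11.8% and 12.9%. The groups did not overlap in any of these shares.

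**Figure D4:**
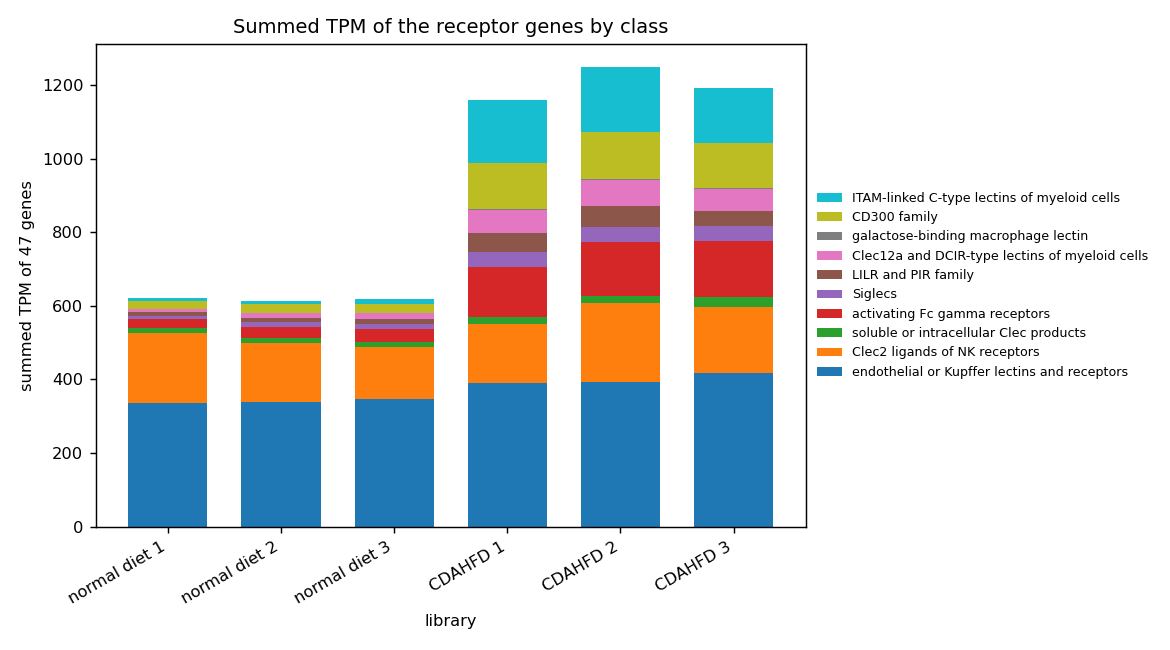
Summed TPM of the 47 genes in each library (y axis), stacked by class, for 3 normal diet and 3 CDAHFD libraries. The totals lie between 614 and 621 on normal diet and between 1159 and 1250 on CDAHFD. The bottom segment of endothelial or Kupffer genes, most of it Fcgrt, makes 54.2% to 56.2% of the total and then 31.5% to 35%.

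The signalling partners rose with the receptors. Of 16 adaptor and kinase genes 16 passed as higher, with a median log2 change of 2.10, beside 28.5% of all genes called higher. Hcst had under 10 counts in each normal diet library and passed the filter only through the CDAHFD libraries. The other 15 all rose, with a median log2 change of 2.12. Fcer1g and Tyrobp, the adaptors that carry the ITAM for most of these receptors, went from 9.54 ± 1.65 to 53.5 ± 4.98 CPM and from 9.16 ± 2.14 to 53.5 ± 5.52 CPM (2.49 ± 0.14 and 2.55 ± 0.16). The kinase gene Syk rose by 2.38 ± 0.12, the adaptor gene Blnk by 3.68 ± 0.16 and the Src-family kinase gene Fgr by 2.49 ± 0.25. The TPM ratio of Clec7a to Fcer1g was 0.141, 0.179 and 0.188 with normal diet and 0.567, 0.597 and 0.601 with CDAHFD, higher in each CDAHFD library.

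Phosphatases and docking proteins of the inhibitory arm rose in 5 of 6 cases. Inpp5d (SHIP1), which acts downstream of Fcgr2b, rose by 2.27 ± 0.16, Dok2 by 2.47 ± 0.18 and Ptpn6 (SHP-1) by 1.01 ± 0.13, while the widely expressed Ptpn11 did not pass (-0.20 ± 0.10). Of 9 tested genes for ligands and makers of sialic acid ligands 2 rose, 1 fell and 6 did not pass, shares no larger than the 28.5% and 23.5% of all genes. Of the 2 that rose, Pdpn passed the filter only through the CDAHFD libraries. St8sia4, a polysialyltransferase, rose by 2.62 ± 0.22, and Cmas, which activates sialic acid, fell by 0.49 ± 0.10, a call lost with total counts (-0.17). The abundant sialyltransferase genes St6gal1 and St3gal4 did not pass.

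Markers of the cells that carry these receptors moved in the same comparison. All 8 monocyte and macrophage markers rose, with a median log2 change of 3.49 and a summed level of 153 to 195 CPM on normal diet and 893 to 967 CPM on CDAHFD. All 6 conventional dendritic cell markers rose (7.42 to 8.85 CPM, then 19.4 to 22 CPM), and 5 of 6 T and natural killer cell markers did (2.45 to 2.95 CPM, then 9.82 to 14.1 CPM). The dendritic cell gene Zbtb46 was close to the threshold (log2 change 0.43 ± 0.17, adjusted p = 0.0482 by edgeR) and did not pass by DESeq2 (adjusted p = 0.0735). The summed neutrophil markers were at 2.16 to 3.55 CPM and then at 22.4 to 27.6 CPM. Of the 5 tested genes of that list 4 had under 10 counts in each normal diet library, so that the filter favoured their calls. Only the call of Csf3r (log2 change 2.86 ± 0.20) was free of this. Counts as low were also found for 1 of the 8 monocyte and macrophage, 2 of the 6 dendritic cell and 1 of the 6 T and natural killer cell markers. Other genes of these lists, such as Ly6c2, Xcr1, Ccr7, Cd3e and Cd3g, were under 10 counts in at least 1 normal diet library. They also needed the CDAHFD libraries to pass the filter. Of 8 hepatocyte markers 6 fell, and 4 did with total counts. The TPM of Clec7a relative to the macrophage gene Adgre1 was 0.250, 0.327 and 0.390 with normal diet and 2.73, 2.05 and 1.77 with CDAHFD, and that of Fcgr1 was 0.179, 0.211 and 0.222 and then 0.361, 0.339 and 0.352. Both ratios were higher in each CDAHFD library. The part of cell numbers in these changes was not tested.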

How the data were processed

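RNA-seq of 6 mouse liver libraries was used. Per the labels' protocols, RNA was extracted with TRIzol and made into stranded mRNA libraries. Alignment is credited to STAR 2.7.11a on build GRCm39, per the submitters' processing notes. How reads were counted, with which annotation and strand setting, is not stated in the labels or file headers. The authors deposited raw counts per Ensembl gene and TPM, which sum to 1000000 per library. Columns beginning with CD were read as CDAHFD and those with ND as normal diet, with the replicate number of the titles.

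Symbols came from a table of mouse gene names (51911 of 56847 IDs matched). Genes were filtered with filterByExpr (minimum count 10, 14215 kept), scaled by TMM and tested with edgeR 4.0.16 in R 4.3.3 (quasi-likelihood, diet as the only term). Standard errors were taken as the absolute log2 change over the square root of F. The procedure was tested on simulated data. Within a diet, libraries differed by more than sampling noise (chi-square per degree of freedom 17.5 to 39.7). Alternatives changed the library scaling, the filter, the test (DESeq2 1.42.0), the unit (limma 3.58.1 on TPM), the replicate block and the libraries included.

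The members, their classes and the marker and partner lists were chosen with earlier results of these data known. Values are given by library for Clec4g and Clec1b and, per class, for up to 4 called members of largest change whose mean reached 1 CPM, for the 2 most abundant, and for tested members that fell or did not pass. From each marker or partner list the first 2 genes and up to 4 of the largest calls could be named. Other genes were chosen after their values were seen. Genes under about 1 CPM rest on few counts, so their values carry more counting error.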

Additional observations from a re-analysis of the deposited data

How the results depend on the processing

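The count of members called higher was 36 and kept within 33 to 45 under all alternatives, from 33 of 43 tested with the stricter filter (1 CPM in 3 libraries) to 45 with hepatocyte markers as the scale. The count called lower was 1, and it was 0 with total counts, with hepatocyte markers and on log2(TPM + 1) or log2(TPM + 0.1) in limma, 2 with DESeq2, and 1 to 2 when a library was left out. The endothelial or Kupffer members called higher were 1, and 3, 7, 3 and 3 with total counts, hepatocyte markers and the TPM scales. The same scalings moved the median gene from 0.01 to 0.34, 0.81, 0.29 and 0.37, and called 44%, 74%, 45% and 43.7% of all genes higher. With total counts and hepatocyte markers the scaling alone changed. On the TPM scales the unit, the test and the pseudocount changed as well, and the cause was not tested. Of 9 sinusoidal endothelial markers 7 were called higher with total counts and 9 with hepatocyte markers. Signs turned for genes near 0. With total counts the values were 0.14 for Clec2d, 0.0059 for Clec2h, 0.082 for Fcgrt, 0.20 for Clec4g, 0.24 for Cd300lg and 0.20 for Clec1a. With hepatocyte markers they were 0.61, 0.48, 0.56, 0.68, 0.72 and 0.67, and 0.38 for Clec16a. On log2(TPM + 1) they were 0.18, 0.055, 0.13, 0.24, 0.27 and 0.16, and on log2(TPM + 0.1) 0.18, 0.057, 0.13, 0.24, 0.28 and 0.25. With 1 library left out at a time Clec1a ran from -0.29 to 0.044 (without normal diet replicate 2) and Cd300e from -0.048 (without CDAHFD replicate 2) to 0.41.

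With each library left out, the ratio differences ran from -4.63 to -4.13 for Clec4g to Clec7a and from -3.81 to -3.58 for Clec1b to Clec7a. The diets do not overlap in either ratio, so leaving out 1 library could not turn the sign. With the replicate number as a block 36 members were higher and 1 lower, as without it. Deviations of same-numbered libraries correlated at -0.05, 0.07 and 0.12, so the numbers are not taken to pair the samples, and 1 of the 3 CDAHFD libraries correlated best with another number.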

Other observations

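A list of 25 related receptors that the symbol rule leaves out was measured as well. Of its 19 tested genes 13 rose, 3 fell and 3 did not pass by edgeR, beside 28.5% of all genes called higher and 23.5% lower. Of the 13 that rose, 4 had under 10 counts in each normal diet library and passed the filter only through CDAHFD. Trem2, a Tyrobp-linked lipid receptor of macrophages, rose from 0.444 ± 0.196 to 40.0 ± 3.45 CPM (log2 change 6.47 ± 0.22). The collagen uptake lectin gene Mrc2 rose by 3.67 ± 0.21 and Sirpa, the inhibitory receptor for CD47, by 3.06 ± 0.14. The Siglec genes Cd33 and Cd22, which carry other symbols, rose by 1.61 ± 0.23 and 2.40 ± 0.22. Mrc1, the mannose receptor that sinusoidal endothelium and macrophages share, did not pass (-0.17 ± 0.11). The hepatocyte lectin gene Asgr2 (-0.40 ± 0.11), the endothelial scavenger lectin gene Colec12 (-0.34 ± 0.13) and Pigr, the polymeric immunoglobulin receptor gene (-0.52 ± 0.12), were called lower, but with total counts the values were -0.077, -0.024 and -0.20 and none passed.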
